A study of Rattus norvegicus with 33 samples.

Results

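The data are the 5 brain arrays, of 33 arrays in the whole series, from adult male rats injected with carrageenan in the left hindpaw on postnatal day 12 (P12). They were taken by their titles, which give age and tissue. Carrageenan is a seaweed polysaccharide that causes a local inflammation. Pups were given a single dose of 0.25% carrageenan in saline, 1 µl for each g, under the sole of the paw, and were adults of postnatal day 60 when studied. Each array set brain cDNA of a carrageenan rat, labelled with Alexa 647, beside control brain cDNA, labelled with Alexa 546. The control is labelled as control on array 1 and as intact on arrays 2 to 5. The labels give no strain, brain region or saline group, and do not say whether RNA of several animals was pooled. The study also examined adults during a second inflammation of the paw by complete Freund's adjuvant, and no array label says whether its rat was one of them. In the study's design, P12 stands outside a sensitive period for early injury and postnatal day 3 (P3) inside it.

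The arrays carried oligonucleotide probes for receptors, transporters and signalling peptides of the nervous and immune systems. Glutamate and GABA are the main excitatory and inhibitory transmitters of the brain. Serotonin, noradrenaline, opioid peptides and tachykinins modulate pain signals, in part through pathways that run from the brainstem to the dorsal horn of the spinal cord. Cytokines and chemokines carry signals between immune cells, and some act on glia and neurons.

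Each value is a log ratio between both channels of an array, taken here as log2. Neither the log base nor the direction is stated, so signs are given as deposited. Carrageenan is the first-named channel, but the order of channels does not settle the direction of the ratio. By the labels the dyes were swapped on no array, so treatment and dye cannot be told apart. A ratio gives no level of a gene, and the probe names held 0 of the listed markers of neurons, astrocytes, microglia, oligodendrocytes, blood or vessels, so the tissue could not be checked against cell type markers. Of 232 probes, 205 carried 1 gene symbol, for 158 genes, and 27 were unnamed here.

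Array 4 stood apart from the other brain arrays. Its log ratios had an SD of 0.326 over probes, against 0.723, 0.850, 0.728 and 1.02 in arrays 1, 2, 3 and 5. Its mean correlation with the other brain arrays was 0.0667, and arrays 1 to 3 had mean correlations from 0.294 to 0.373. Array 5 reached furthest in both directions, from -5.35 to 4.56, and its mean correlation with the other brain arrays was 0.227. Of 1160 brain values, 27 were exactly 0, with 16 of them in array 5 and 9 in array 1. Whether these zeros were measured is not known here, and the main fit kept them as deposited. The highest correlation between brain arrays was 0.553 and the lowest 0.0139, each over 232 probes that share the array design and the dye orientation. No array pair had more than 22% of its values within 0.1 of each other, so each array was counted as 1 sample. The labels do not state that separate animals were used, so p-values measure only the spread between these samples.

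**Figure D1:**
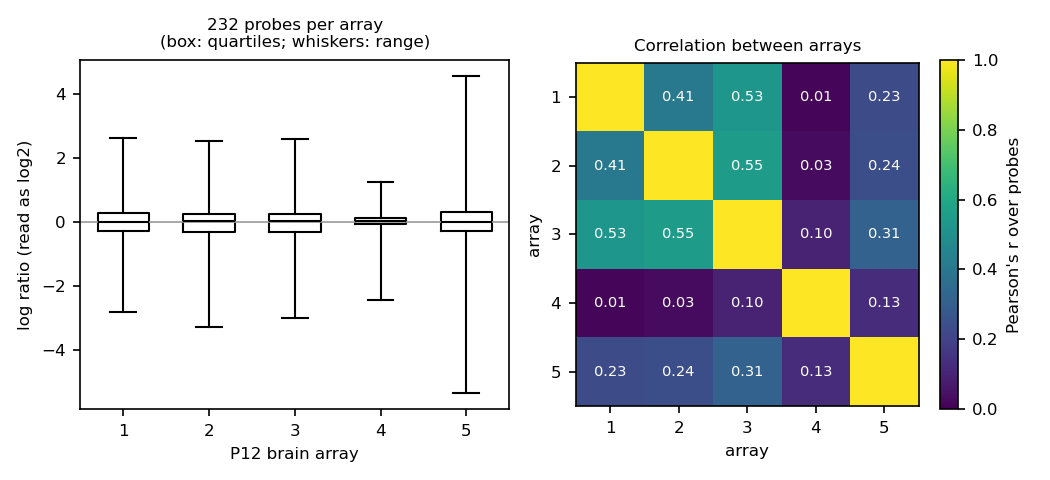
The left panel shows the log ratios of 232 probes in each P12 brain array (box, quartiles; line, median; whiskers, full range), and the right panel shows Pearson's r between arrays over the same probes. Array 4 has the narrowest spread (SD 0.326) and its highest correlation with another brain array is 0.128.

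The first question was which genes differed between carrageenan and control brain. No probe passed at an adjusted p under 0.05 in limma, 0 of 232 (0%). At an unadjusted p under 0.05 there were 37 probes (15.9%), where 11.6 would fall with no change, 17 with a positive mean (7.33%) and 20 with a negative one (8.62%). Among all probes, 36 (15.5%) had the same sign in 5 of 5 arrays, 19 positive (8.19%) and 17 negative (7.33%). Positive means made up 54.7% and negative means 45.3%. Means lay within 0.2 of 0 for 107 probes, above 1 for 3 and below -1 for 13. Other fits gave 0 probes with array weights or without variance moderation, 14 with robust regression, and 2 without array 4. The weights were 1.47 and 1.46 for arrays 3 and 4 and 0.587 for array 5, so the weighted fit did not set array 4 aside. The smallest two-sided p that an exact permutation of signs can give with 5 arrays is 0.0625, so no single probe could pass on that test. Below, ± marks the SD with n = 5 arrays.

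The lowest p values belonged to receptors with negative log ratios. Gabbr1 probe 37, on the gene of a subunit of the metabotropic GABA-B receptor, had -0.91, -0.69, -1.62, -1.04 and -1.46 in arrays 1 to 5. Its mean was -1.14 ± 0.39, with an adjusted p of 0.0784. All 5 arrays were negative, and array 4 lay in the middle of the others. Cxcr1, a chemokine receptor known from neutrophils, had -1.08, -1.06, -1.93, -2.44 and -1.32. Its mean was -1.57 ± 0.60, also with an adjusted p of 0.0784. Here array 4 was the lowest of the 5, while in many other probes it was the nearest to 0. Both probes passed in robust regression, with adjusted p values of 0.0280 for Gabbr1 probe 37 and 0.0359 for Cxcr1. That fit left their means at -1.14 and -1.57, the same as in the main fit. These passes thus rest on the choice of fit. The exact permutation of signs gave each probe a p of 0.0625.

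Tacr3 probe 158, on the gene of the neurokinin B receptor, had -1.17, -0.71, -1.31, -0.48 and -2.16. The mean was -1.17 ± 0.65 and the adjusted p 0.276. A second probe of Tacr3, probe 157, had -0.002, -0.29, -0.43, 0.32 and 0.33, and its mean was -0.02 ± 0.35. One Tacr3 probe was thus negative in 5 of 5 arrays and the other in 3 of 5.

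Htr2c, a serotonin receptor of the choroid plexus and many neurons, had the lowest mean of all probes, -2.20 ± 1.31. Arrays 1, 2, 3 and 5 had -2.45, -2.27, -3.01 and -3.31, and array 4 had 0.03. Over all 5 arrays the adjusted p was 0.276 in limma. Without array 4 the mean was -2.76 and the adjusted p 0.00748. An unnamed probe, number 65, picked after its values were seen, had the same form. It had -2.81, -2.51, -2.79 and -2.83 in arrays 1, 2, 3 and 5 and 0.85 in array 4, and without array 4 its mean was -2.73 with an adjusted p of 0.000955. Over all 5 arrays probe 65 had an adjusted p of 0.292 in limma. These were the 2 probes that passed when array 4 was left out. In both, array 4 held the value that differed from the others, so a smaller p without it adds no support.

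Il2rb, a receptor chain shared by interleukin 2 and interleukin 15, had -0.78, -0.98, -1.57, -0.07 and -0.77. The mean was -0.83 ± 0.54 and the adjusted p 0.286. All arrays were negative, with array 4 close to 0. Among the 20 named probes with the smallest p, 13 had negative and 7 positive means, and 13 had 1 sign in all arrays. In 15 of these 20, array 4 held the value nearest 0, as it did in 44.4% of all probes.

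**Figure D2:**
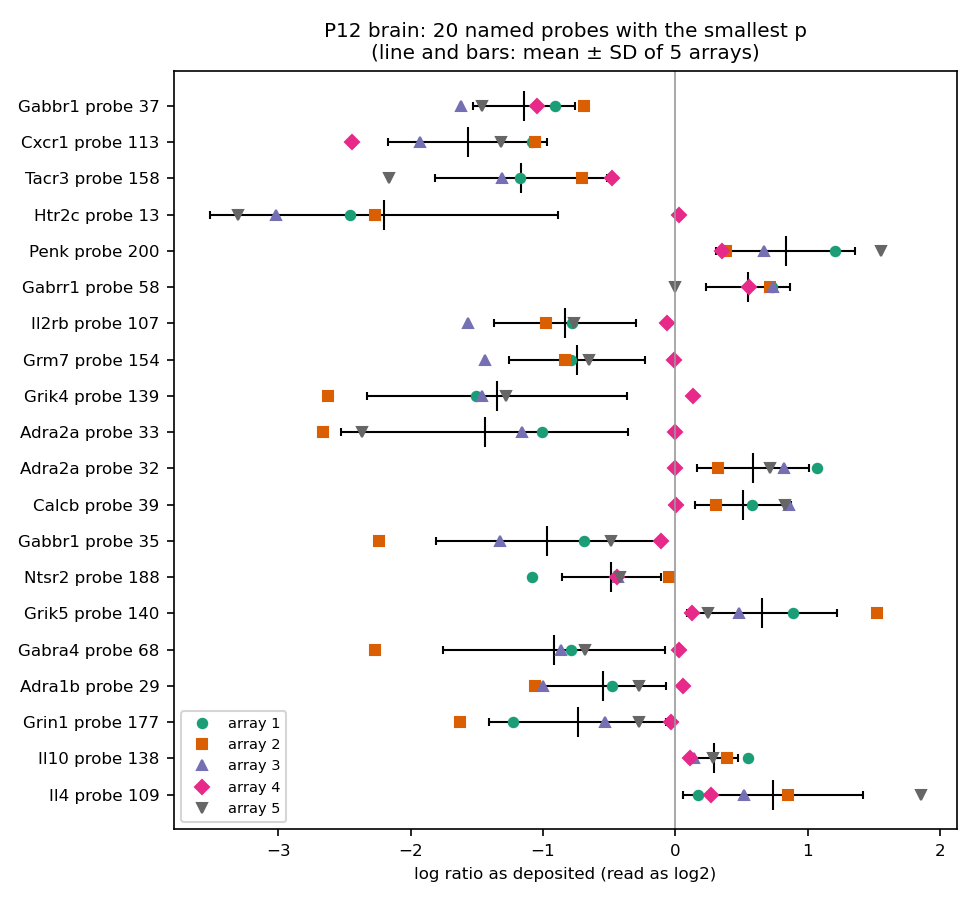
Each row is 1 of the 20 named probes with the smallest p in P12 brain, and each symbol is the log ratio in 1 array, with the mean (vertical tick) and SD (bars) of 5 arrays. Gabbr1 probe 37, Cxcr1 and Tacr3 probe 158 lie below 0 in all arrays, while array 4 sits at 0.03 for Htr2c.

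Ionotropic glutamate receptors form the channels of fast excitation. Of 5 AMPA receptor probes, 3 had positive and 2 negative means, from -0.59 ± 0.74 (Gria4) to 0.55 ± 1.11 (Gria3), with a median of 0.03 against 0.04 over all probes. Gria3 rested on array 2, which had 2.52, while the other arrays lay between -0.11 and 0.26. Of 11 NMDA receptor probes, 5 had means above 0 and 6 below, and the list median was -0.26, which turned to 0.05 without array 5. The obligatory subunit Grin1 had 4 probes, with means of 1.15 ± 1.82 (probe 175), -0.26 ± 0.99 (probe 176), -0.74 ± 0.67 (probe 177) and 0.03 ± 0.12 (probe 178). Probe 177 had -1.23, -1.62, -0.53, -0.03 and -0.27, negative in 5 of 5 arrays, with an adjusted p of 0.297. Probe 175 had 0.80, -0.37, -0.12, 1.25 and 4.18, so its mean rested on array 5. The modulatory subunit Grin3a was negative on both of its probes, with -1.04 ± 1.30 (probe 182) and -0.52 ± 0.89 (probe 232). Both leaned on array 2, at -3.28 and -1.95, and without it the means were -0.48 and -0.16. Grin2b, a subunit linked to plasticity, had -0.29 ± 0.46, and without its lowest array, array 5 at -1.11, the other arrays lay between -0.20 and 0.001.

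The kainate and delta receptor list held kainate subunits and no delta gene, with 5 positive and 2 negative means on 7 probes. Grik4, a high-affinity kainate subunit, had -1.51, -2.62, -1.46, 0.13 and -1.28, with a mean of -1.35 ± 0.98 and an adjusted p of 0.286. It was negative in all arrays but array 4, and passed in robust regression (adjusted p = 0.00322). Grik5, the other high-affinity subunit, was positive in 5 of 5 arrays, with 0.89, 1.52, 0.48, 0.12 and 0.25 and a mean of 0.65 ± 0.57. The 2 high-affinity subunits thus had means of opposite sign. Metabotropic receptors, which signal through G proteins, had 4 positive and 4 negative means on 8 probes. Grm7, a presynaptic receptor, had -0.79, -0.83, -1.44, -0.01 and -0.65, with a mean of -0.74 ± 0.51. Grm8, of the same presynaptic group, had the highest mean of this list, 0.45 ± 0.39, positive in 4 of 5 arrays. Glutamate transporters had 2 probes, Slc1a6 at 0.24 and Slc1a1 at -0.23. No probe of these 5 lists passed in limma.

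GABA-A receptors are chloride channels, and their subunits had 7 positive and 5 negative means on 12 probes, with a median of 0.05. The 3 lowest were Gabrd, an extrasynaptic subunit, at -1.06 ± 1.22, Gabra4, often its partner, at -0.92 ± 0.84, and Gabra5 at -0.73 ± 1.21. Gabra4 had -0.79, -2.27, -0.87, 0.03 and -0.69, with an adjusted p of 0.297. Gabrd was negative in 5 of 5 arrays, but -1.96 and -2.77 in arrays 1 and 2 stood against values between -0.31 and -0.12 in the others. The highest mean was that of Gabra3, 0.30 ± 0.64, which rested on array 5 at 1.28 and was 0.05 without it. The rho subunits, which form GABA channels best known from the retina, were both positive. Gabrr1 had 0.73, 0.72, 0.74 and 0.56 in arrays 1 to 4 and a value of exactly 0 in array 5, with a mean of 0.55 ± 0.32 and an adjusted p of 0.286. Synthesis and transport genes of GABA had 3 positive and 1 negative mean on 4 probes, from -0.28 (the transporter Slc6a11) to 0.24 (the synthetic enzyme Gad2).

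The GABA-B list held 7 probes, all on Gabbr1 and on 3 sequence entries. Their means were -1.14 ± 0.39 (probe 37), -0.97 ± 0.84 (probe 35), -0.60 ± 0.73 (probe 76), -0.54 ± 0.62 (probe 224), -0.29 ± 0.30 (probe 34), 0.13 ± 0.16 (probe 36) and 0.26 ± 0.46 (probe 38). The negative probes 34, 35, 37 and 224 were below 0 in 5 of 5 arrays, and the positive ones were above 0 in 3 of 5. The median of -0.54 was the lowest of the 22 lists with at least 3 probes, but it describes 1 gene. Without array 1 or 2 the list with Cxcr1 and Cxcr2 had the lower median, -0.54 or -0.46 against -0.43 or -0.32.

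Serotonin genes had 6 positive and 10 negative means on 16 probes, with a median of -0.01. Apart from Htr2c, their means lay between -0.34 (Htr3b) and 0.48 ± 1.06 (Htr5a). The mean of Htr5a rested on array 5 at 2.28 and was 0.03 without it. Adrenergic genes had 6 positive and 5 negative means on 11 probes, and 4 of the 11 were at an unadjusted p under 0.05, against 15.9% of all probes. They did not point one way. Adra2a, the receptor that mediates much of the analgesia by noradrenaline, had -1.44 ± 1.08 on probe 33, 0.59 ± 0.42 on probe 32 and 0.06 ± 0.47 on probe 26. Probe 33 had -1.01, -2.66, -1.16, exactly 0 and -2.37, and probe 32 had 1.07, 0.33, 0.82, -0.001 and 0.71. In 4 of 5 arrays these probes of 1 gene had opposite signs. Adra1b had -0.55 ± 0.48, negative in 4 of 5. Histamine receptors had 2 positive and 2 negative means, from -1.39 ± 2.25 (Hrh4) to 0.32 ± 0.40 (Hrh1), and Hrh4 rested on array 5 at -5.35.

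Opioid peptides and receptors had 6 positive and 7 negative means on 13 probes, with a median of -0.04. Penk, the precursor of enkephalins, had 3 probes on 1 sequence entry. Probe 200 had 1.20, 0.38, 0.67, 0.36 and 1.55, positive in 5 of 5 arrays, with a mean of 0.83 ± 0.53 and an adjusted p of 0.286. Probe 197 had -0.69 ± 0.80 and probe 199 had -0.29 ± 0.32. In robust regression probe 199 passed (adjusted p = 0.036) and probe 200 did not. The Penk probes thus had means of both signs. Oprm1, the receptor of morphine, had -2.20, -0.35, -1.78, 0.01 and -0.55, with a mean of -0.97 ± 0.96. Oprk1, the dynorphin receptor, was positive in 5 of 5 arrays with a mean of 0.75 ± 0.86, with values of 1.38 and 1.95 in arrays 1 and 3 and of 0.21 or less in the others. Pdyn, the dynorphin precursor, had -0.44 ± 0.38, negative in 4 of 5, and the enkephalin receptor Oprd1 had -0.04 ± 0.15.

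Tachykinins and calcitonin gene-related peptide (CGRP) are transmitters of pain fibres. Tac1, the precursor of substance P, had 4 probes with means of 0.25 ± 0.49 (probe 79), 0.19 ± 0.27 (probe 56), -0.01 ± 0.12 (probe 27) and 0.32 ± 0.44 (probe 221). The tachykinin list had 4 positive and 3 negative means on 7 probes. The CGRP list had 6 positive and 2 negative means on 8 probes and the highest median of the 22 lists, 0.23, though without array 1 or 5 the kainate and delta list was higher. Calcb, one of the genes of CGRP, had 0.58, 0.31, 0.86, 0.001 and 0.83, with a mean of 0.51 ± 0.36 and an adjusted p of 0.292. Calca, the other, had 0.57 ± 0.84 on probe 196, -0.40 ± 0.41 on probe 47 and -0.33 ± 0.30 on probe 48. The mean of Calca probe 196 rested on array 5 at 2.05, while the other arrays lay between 0.05 and 0.50.

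In the neuropeptide Y family, 2 means were positive and 3 negative. Npy itself had 1.01 ± 1.66, with 3.94 in array 5 and values from -0.09 to 0.68 in the others, and its receptor Npy1r had -0.29 ± 0.49. The somatostatin list held no galanin gene and had 3 positive and 6 negative means on 9 probes, with Sst at -0.27 ± 0.41, its receptor Sstr1 at -0.46 ± 0.72 on probe 216 and Sstr2 at 0.13 ± 0.10 on probe 217. The list of cholecystokinin, VIP and PACAP genes had 2 positive and 4 negative means. Vipr2, a receptor of vasoactive intestinal peptide, had -1.28 ± 1.53 on probe 230, with -2.93 and -2.97 in arrays 2 and 3 and values from -0.35 to 0 in the others, and Vipr1 had 0.17 ± 0.27. Among other neuropeptides, 4 means were positive and 2 negative. Ntsr2, a neurotensin receptor, was negative in 5 of 5 arrays, with -1.09, -0.05, -0.43, -0.44 and -0.42, a mean of -0.48 ± 0.37 and an adjusted p of 0.297. Ntsr1, on a probe whose gene identifier was not in the rat gene table, had 1.04 ± 2.06 and rested on array 5 at 4.56.

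Neurotrophins had 3 probes and their receptors 4. Ntf4 had -0.39 ± 0.32, negative in 4 of 5, brain-derived neurotrophic factor (Bdnf) -0.13 ± 0.15 and Ntf3 0.51 ± 0.86. Ntrk2, the Bdnf receptor, had 0.15 ± 0.21, and Ntrk3, the Ntf3 receptor, had -0.26 ± 0.30 and 0.14 ± 0.54 on its probes.

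Interleukins had 17 positive and 6 negative means on 23 probes, a share of positive means above the 54.7% of all probes, with a median of 0.09. In this list 5 of 23 probes were at an unadjusted p under 0.05, against 15.9% of all probes, and 4 were positive in 5 of 5 arrays, which 8.19% of all probes were. Il4, an anti-inflammatory cytokine, had 0.73 ± 0.68 on probe 109, positive in 5 of 5 with 0.17, 0.85, 0.52, 0.27 and 1.86, and 0.65 ± 0.66 on probe 133 and 0.01 ± 0.31 on probe 57. Il10, also anti-inflammatory, had 0.55, 0.39, 0.14, 0.11 and 0.28, a mean of 0.29 ± 0.18 and an adjusted p of 0.297. Il2, a growth factor of T cells, had the highest mean of the list, 0.86 ± 0.84, and array 5 at 2.32 lay above the others. The inflammatory cytokine Il1b was positive in 5 of 5 arrays within a narrow range, with 0.19, 0.21, 0.32, 0.11 and 0.11 and a mean of 0.19 ± 0.085, and Il6 had 0.09 ± 0.26. Il23a, a subunit of interleukin 23, was the lowest, with -2.24, -1.74, -2.53, 0.36 and exactly 0 and a mean of -1.23 ± 1.32.

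Interleukin receptors had 7 positive and 9 negative means on 16 probes, with a median of -0.07. Il2rb was the lowest at -0.83 and Il2rg, the common chain that pairs with it, the highest at 0.36 ± 0.39. Of chemokine, interferon and tumour necrosis factor genes, the array names held Cxcr1 and Cxcr2. Cxcr2, the sister receptor of Cxcr1, had -0.92 ± 1.08, -0.01 ± 0.06 and 0.15 ± 0.30 on its probes 114, 93 and 53. None of the 31 probes of the pain panel, a list of 15 genes often studied in pain, passed in limma. The panel's median was -0.13, with 13 means above 0 and 18 below. The 12 named probes on no list had means from -0.49 to 0.28. Lists for glycine, dopamine and acetylcholine genes and for reference genes had 0 probes.

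**Figure D3:**
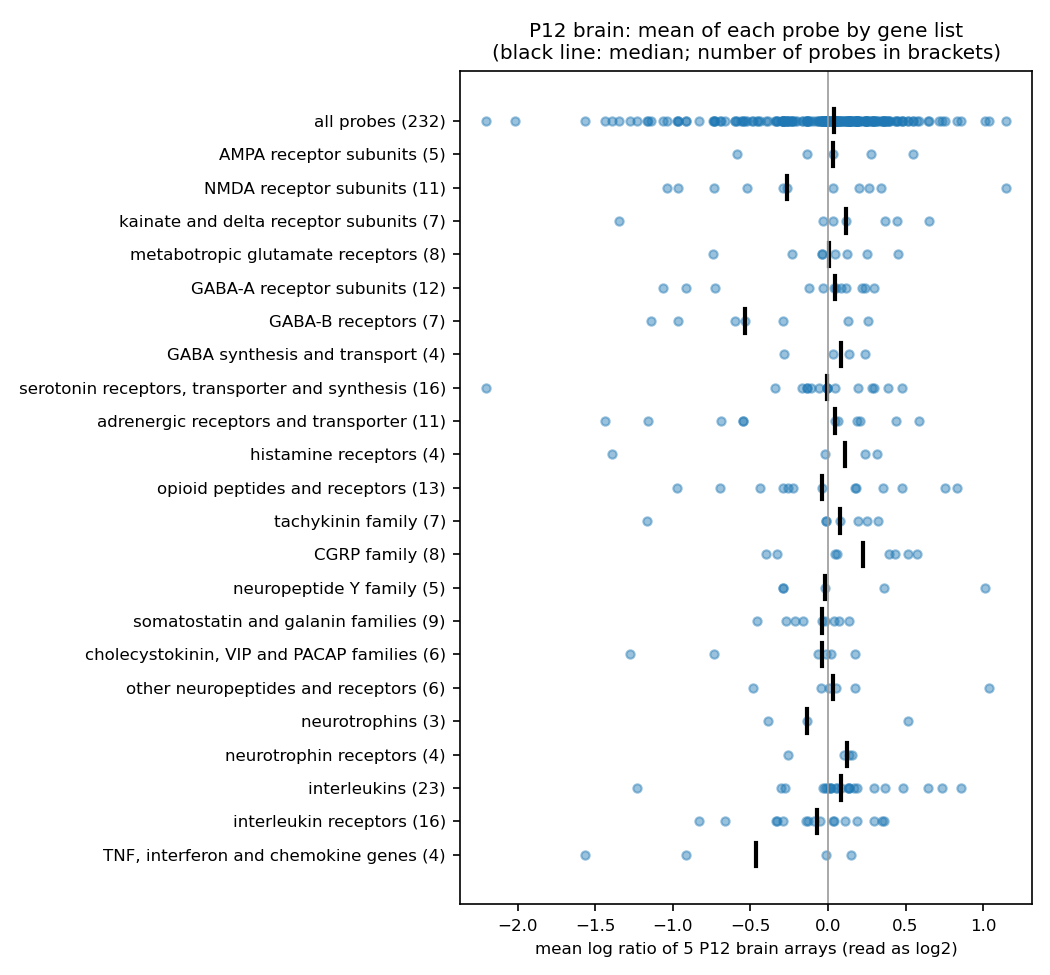
Each point is the mean log ratio of 1 probe over 5 P12 brain arrays, sorted by gene list, with the median as a black line and the number of probes in brackets. The median of all probes is 0.04, list medians run from -0.54 (GABA-B, 1 gene) to 0.23 (CGRP), and Htr2c at -2.20 is the lowest point.

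Probes of 1 gene were set against each other because the array held several for 30 genes. Of these, 16 had probe means of both signs. In 77 pairs of probes of 1 gene, 40 had means of the same sign, and the probe means correlated at r = 0.0292. For 42 pairs on 1 sequence entry, 20 had the same sign and r was -0.0363, and in single arrays this r lay between -0.21 and 0.0669. These pairs share genes and arrays, so r is a description. The widest spread was that of Adra2a, from -1.44 to 0.59, followed by Grin1, from -0.74 to 1.15, and Penk, from -0.69 to 0.83. Il18, Sstr2, Grik1 and Grik3 had probe means within 0.1 of each other, and Grik1 was at 0.37 and 0.45. Averaging the probes of a gene gave 0 passing items and moved Gabbr1 to -0.45 and Tacr3 to -0.59, so each value here stands for its probe. The gene of each probe rests on the platform annotation alone. Probes on 1 sequence entry showed no agreement, so the values do not bear out that match. The reason was not tested.

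**Figure D4:**
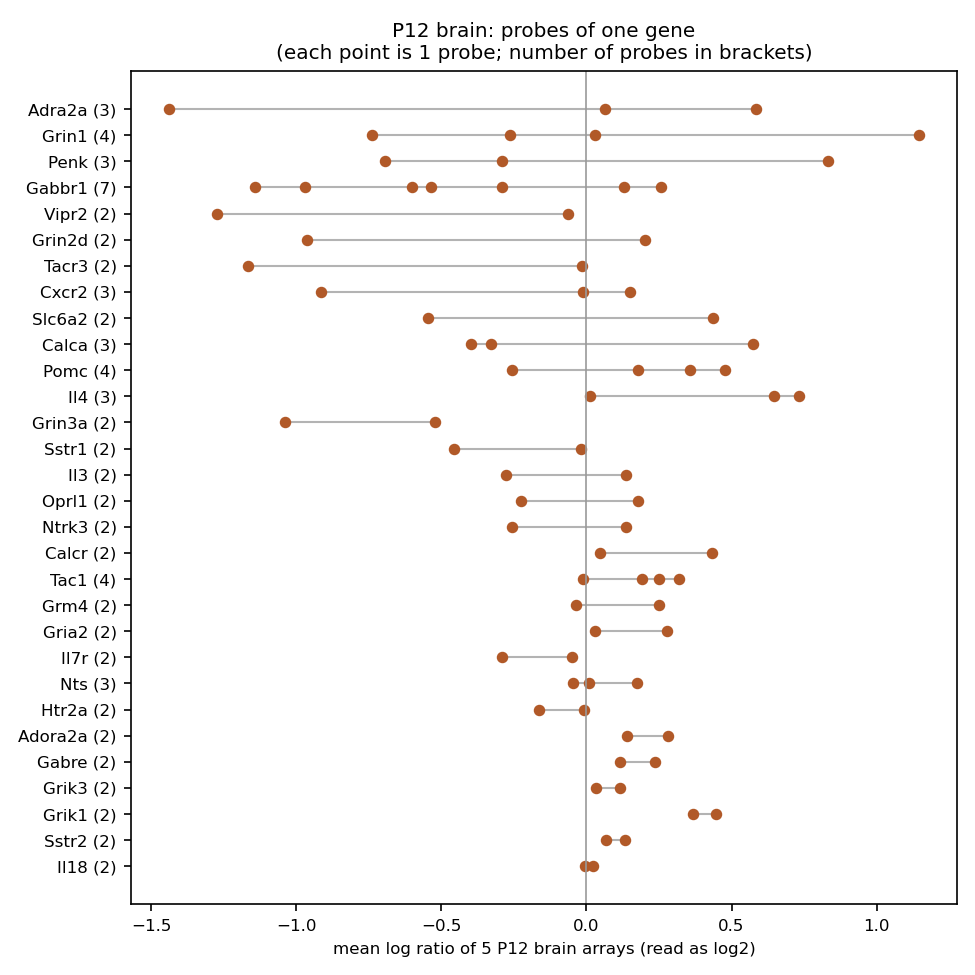
Each point is the mean log ratio of 1 probe over 5 P12 brain arrays, for the 30 genes with several probes, ordered by the spread between probes. Adra2a at the top runs from -1.44 to 0.59, and probes lie on both sides of 0 for 16 genes.

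The comparison with the cord asked where brain differed from the dorsal horn after the same injection. The left and right lumbar dorsal horn had 5 arrays each at P12, in the same table. The mean of both sides minus brain passed for 2 of 232 probes (0.862%) in limma, and 25 (10.8%) had an unadjusted p under 0.05. Ntf3, a neurotrophin for proprioceptive neurons, had -0.23, 1.98, 0.44, 0.38 and exactly 0 in the brain arrays. It had -1.65 ± 0.93 in the left and -2.58 ± 0.49 in the right cord. For Ntf3 probe 161 cord minus brain was -2.63 ± 0.41 (SE), with an adjusted p of 0.00286 in limma. Brain was positive in 3 of 5 arrays, and both cords were negative in 5 of 5. Against the left cord alone the difference was -2.17 and did not pass (adjusted p = 0.0849), whereas against the right cord it was -3.09 (adjusted p = 0.00234). The other was an unnamed probe, number 145, at -0.56 ± 0.43 in brain against 0.34 and 0.51 in left and right cord, which differ by 0.99 ± 0.22 (SE; adjusted p = 0.0485). It lost its call without brain array 1, 2, 3 or 5, with the replicate block, with arrays centred or scaled, and against either cord side alone. The count was 19 by robust regression, which held both of these probes, and 3 without brain array 4.

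The leading negative probes of brain had negative means in both cords too, and for none of Gabbr1 probe 37, Cxcr1 and Htr2c did the difference pass. Gabbr1 probe 37 had -1.06 ± 0.93 in the left and -1.55 ± 0.60 in the right cord, and the difference from brain was -0.16 ± 0.36 (SE). Cxcr1 had -1.52 ± 1.30 and -2.05 ± 0.73, a difference of -0.22 ± 0.48, and Htr2c -1.64 ± 2.12 and -2.56 ± 1.40, a difference of 0.10 ± 0.83. Of the 20 probes with the smallest p in brain, 16 had the brain's sign in the mean of each cord, as did 118 of all 232 probes (50.9%). The 20 were picked by their p in brain, while 107 of all probes had brain means within 0.2 of 0. These shares are therefore not of like probes, and their gap is no finding. Brain and cord means correlated at r = 0.411 (left) and 0.507 (right) over 232 probes, which share the array design and dye orientation, and the 2 cord sides at 0.671. Values common to brain and cord include any difference between the dyes, whose part in these ratios was not tested. The 4 of the 20 with another sign in at least 1 cord were Penk probe 200, Grm7, Grin1 probe 177 and Grik5. Penk probe 200 had 0.83 in brain and -0.58 ± 0.83 and -0.47 ± 0.60 in the cords, which differ by -1.36 ± 0.35 (SE; adjusted p = 0.120). Grm7 had -0.74 in brain and 0.56 ± 1.51 and 0.51 ± 1.09 in the cords, which differ by 1.28 ± 0.57 (SE; adjusted p = 0.413). Neither difference passed.

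**Figure D5:**
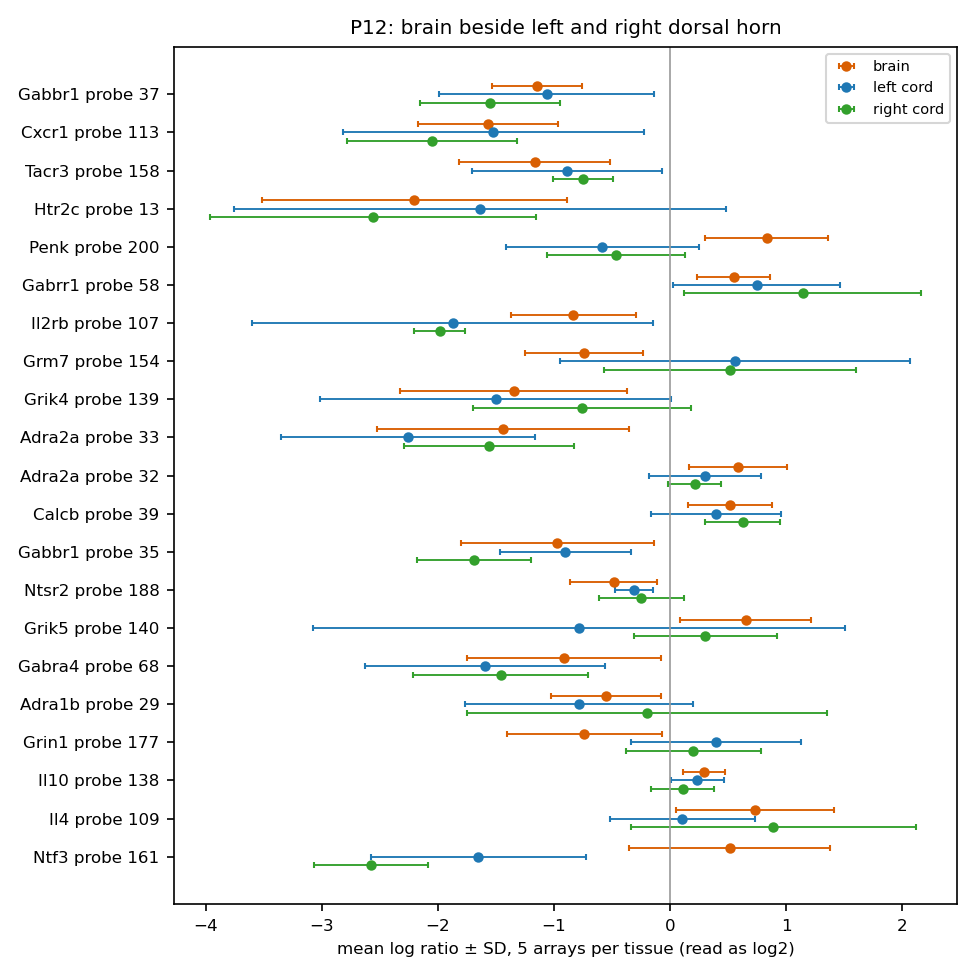
Mean log ratio with SD over 5 arrays in P12 brain (orange), left cord (blue) and right cord (green) for the 20 named probes with the smallest p in brain and for Ntf3. Ntf3 lies at 0.51 in brain and at -1.65 and -2.58 in the cords, and Gabbr1 probe 37 and Cxcr1 lie below 0 in all tissues.

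Brain after injection at P3 was measured on 6 arrays of another platform, in a table of its own, so the values stand side by side and were not tested. Injection day and platform cannot be told apart. Htr2c, at -2.20 ± 1.31 after P12, had 0.06 ± 0.27 after P3 (SD, n = 6). Tacr3 had -0.02 ± 0.14 on its P3 probe, Grik4 0.08 ± 0.14, Grm7 -0.08 ± 0.09 and Gabra4 -0.08 ± 0.10. The P12 probes of these genes were picked by their p in P12 brain, so a P3 mean nearer 0 is no finding. Other genes of the 20 probes went both ways. Calcb, at 0.29 ± 0.64, and Grik5, at 0.15 ± 0.34, had positive means after P3 as after P12. Cxcr1, with a negative mean after P12, had 0.045 ± 0.42 after P3. Adra1b had 0.36 ± 0.54 after P3 against -0.55 after P12. Gabrr1 had -0.60 ± 2.18 after P3 against 0.55, but that P3 mean rested on array 1 at -4.99. In P3 brain, 4 of 6 arrays were positive for Gabrr1. The 8 Gabbr1 probes of the P3 platform had means from -0.48 to 0.35. Il1b, shown here because its signs were opposite, was positive in 5 of 5 arrays after P12 and negative in 6 of 6 after P3. It had -0.33 ± 0.18 after P3, and its adjusted p after P12 was 0.320 in limma. Grm5, a metabotropic glutamate receptor, had -2.05 ± 0.64 after P3 and -0.23 ± 0.78 after P12. It was picked for this gap. Ntsr2 had a negative mean after both, with -0.72 ± 0.86 after P3.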

How the data were processed

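Brain RNA of P12 carrageenan and control rats was compared on 2-colour arrays, with 5 µg of total RNA per sample per the labels' protocols. The deposited values are log ratios per probe, with both signs and medians near 0. Reading them as log2 is an assumption, since these features hold for any base. The base, the direction and the authors' background correction and normalization are each not given in the sources used here. Scanner intensities were not used here, so signal over background is unknown and the number of arrays limits the precision. Probes were named from the platform annotation. RefSeq's rat gene table held the identifiers of 195 probes and changed 0 symbols.

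On the values as deposited, limma (version 3.58.1, R 4.3.3) gave a moderated, two-sided test of each probe's mean against 0. Adjustment was by Benjamini-Hochberg over 232 probes, with a threshold of 0.05. Probes were not averaged by gene, since probes of 1 gene disagreed. The cord comparison used all 15 P12 arrays. Steps were tested on simulated data. The genes named were the 20 named probes with the smallest p, all probes of the pain panel, the extremes of each list with at least 3 probes, any probe that passed, and the other probes of these genes. Lists and members were chosen with earlier results of these data known. Alternatives were averaging by gene, centring, scaling, weights, the replicate block, single cord sides, robust regression, no moderation, a joint fit, the handling of exact zeros, and leaving out each array. Sequences of the array's probes were not used here.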

Additional observations from a re-analysis of the deposited data

Results flagged for a closer look

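In 11 of 83 named probes, and in 37 of all 232 (15.9%), 1 of the 5 brain arrays lay far from the others by Dixon's criterion, which chance meets in about 1 of 20 groups of normal values. The named probes include the extremes of lists, which 1 distant array can produce. Array 5 was the distant one in 8 of the 11, and in 15 of the 37 among all probes. Its values were 3.94 for Npy, -5.35 for Hrh4, 2.32 for Il2, 2.05 for Calca probe 196, -1.98 for Grin1 probe 176, -1.11 for Grin2b, 0.68 for Cxcr2 probe 53 and exactly 0 for Gabrr1. Array 2 had 2.52 for Gria3, array 3 had -0.28 for Tac1 probe 56, and array 1 had 0.28 for Penk probe 199. Array 4 was the distant one in 0 named probes and in 3 of all probes.

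Cord and brain differed by the test of the difference for Ntf3 (-2.63, cord minus brain) and for unnamed probe 145 (0.99). Gabbr1 probe 224 was negative in 5 of 5 brain arrays, with a mean of -0.54, and positive in 5 of 5 arrays of the right cord, at 0.43. That difference from the right cord was not tested by itself, and that from the mean of both cords did not pass (0.96, adjusted p = 0.194).

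Signs were also opposite in all arrays between P12 and P3 brain, without a test, for some probes. Of all P12 brain probes, 36 (15.5%) had 1 sign in 5 of 5 arrays. Il1b had 0.19 after P12 and -0.33 after P3. Grin3a probe 182 had -1.04 after P12 and P3 probe 78 had 0.46, but the other P3 probe of Grin3a, 222, had -0.18 with 3 of 6 arrays negative. Gabbr1 probes 34, 35, 37 and 224 had -0.29, -0.97, -1.14 and -0.54 after P12, and 1 of the 8 Gabbr1 probes of the P3 platform had 0.35 with 6 of 6 arrays positive. Another of the 8, probe 33, had -0.48 with 6 of 6 negative, the sign of those P12 probes, and probe 34 had -0.39.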

How the results depend on the processing

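The count of passing brain probes stayed at 0 with averaging by gene, centring, scaling, array weights, no moderation, a joint fit of 3 tissues, exact zeros as missing and only probes without a zero. It was 14 in robust regression and 0 to 2 with any 1 array left out (2 without array 4). The cord against brain count of 2 was 1 with the replicate block, 1 with centred arrays, 2 with scaled arrays, 19 in robust regression, 0 against left cord, 1 against right cord and 1 to 3 with any 1 brain array left out. With the replicate number as a block, Ntf3 kept its call and unnamed probe 145 lost it. The numbers were not taken to pair tissues, since the labels do not say that they do. Of 15 same-number pairs of arrays, 3 had deviations correlated above 0.1, and 5 of 15 arrays correlated best with their own number. These values do not decide whether tissues came from the same rats, and the main comparison used no pairing. Averaging by gene turned the sign for Penk probe 200 (-0.0513), Adra2a probes 32 and 26 (-0.26), Ntrk3 probe 187 (-0.0605), Grin1 probes 177 and 176 (0.0441), Tac1 probe 27 (0.19), Gabbr1 probes 36 and 38 (-0.45), Calca probe 196 (-0.0523) and Cxcr2 probe 53 (-0.26), by construction. Robust regression turned Grin1 probe 176 (0.0273), Il4 probe 57 (-0.0307) and Vipr2 probe 231 (0.057), and scaling turned Tacr3 probe 157 (0.0938) and Vipr2 probe 231 (0.11), and the cause was not tested. With 1 array left out, 11 of the 83 named probes changed sign and 51 moved by over 1.5 times. The sign changes were in Grin1 probe 176 (-0.48 to 0.17), Grin1 probe 178 (-0.0065 to 0.0552), Il6 (-0.0168 to 0.14), Oprd1 (-0.0778 to 0.0185), Tac1 probe 27 (-0.0448 to 0.022), Il4 probe 57 (-0.11 to 0.10), Sstr1 probe 1 (-0.078 to 0.0265), Adra2a probe 26 (-0.0382 to 0.25), Tacr3 probe 157 (-0.10 to 0.0885), Ntrk3 probe 187 (-0.0705 to 0.26) and Vipr2 probe 231 (-0.20 to 0.16). List medians changed sign without 1 array in 10 of 22 lists, among them the adrenergic (-0.27 to 0.05) and opioid (-0.08 to 0.18) lists.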
